A study of Mus musculus with 4 samples.

Results

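Solute carriers are the membrane proteins that move amino acids, sugars, nucleosides, metals, ions and vitamins across cell and organelle membranes. The genes described here were chosen by name and level: symbols that begin with Slc and a digit, with a mean of at least 1 FPKM (expression per length of transcript and per depth of library) over the 4 samples. The choice left out 10 carriers by name (Slc2a1, Slc2a3, Slc7a2, Slc7a11, Slc11a1, Slc11a2, Slc13a3, Slc16a1, Slc16a3 and Slc40a1). It gave 195 genes in 43 numbered families, out of 12612 genes of the table at that level and 28074 symbols in all. Another 165 such symbols lay below the threshold, of which 31 were listed at 0 in every sample. Just inside it were Slc6a8, Slc13a4 and Slc22a18 (means of 1.005, 1.029 and 1.046 FPKM), and just outside it Slc25a27, Slc6a18 and Slc35d3 (0.941, 0.938 and 0.909 FPKM). Of the 195 symbols, 5 do not name carriers but a partner or neighbour of one, or the pseudogene of a regulator (Slc2a4rg-ps, Slc4a1ap, Slc7a6os, Slc9a3r1 and Slc9a3r2). They were kept, because the choice was by symbol.

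RNA was sequenced from leukaemic splenocytes of 2 mice, numbered 4050 and 4182, each split into a vehicle control and a culture with 10 µg/ml R848 (resiquimod) for 3 days, so that there were 2 samples a group. Both groups carry the same alleles, written as Dnmt3afl/fl, Flt3ITD/ITD and Mx1Cre in the sample source and as Dnmt3a+/- Flt3ITD in the protocols, and which Dnmt3a genotype holds is not settled. Cre is driven by the Mx1 promoter, which interferon is known to switch on, and controls carry it too. All cultures recovered for 24 hours and grew in RPMI medium with 20% serum, SCF at 60 ng/ml, and IL6 and IL3 at 20 ng/ml each. R848 is known as an agonist of the endosomal receptors TLR7 and TLR8, and the stated aim was to find genes and pathways that follow it in these cells. No mouse age was used here. The number of reads behind each value is unknown, and with 2 mice the p-values rest on a spread borrowed across genes.

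Carriers work in compartments. Heteromeric amino acid transporters pair a heavy chain, Slc3a2, with light chains of the Slc7 family at the cell surface. Most Slc25 carriers sit in the inner mitochondrial membrane. Slc35 carriers feed nucleotide sugars into the Golgi and endoplasmic reticulum, and Slc30 and Slc39 carriers move zinc out of and into the cytosol. In immune cells the Slc15 peptide and histidine carriers Slc15a3 and Slc15a4 lie on endolysosomes, where TLR7 also signals, and Slc15a4 is known to be needed for TLR7 responses.

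Short stretches of sequence near the start sites are shown for 4 of the genes, because these genes return in the results and the stretches hold letters of a known factor's site. RefSeq promoters of build GRCm38.p6 (250 bases before to 50 after each start) were matched for 151 of the 195 genes, which have 209 promoters in the table because a gene can have several starts. Slc39a4, Slc15a3, Slc14a1, Slc7a3 and Slc7a5, which return below, were not among the 151. Their promoters were therefore not searched for any of the letters. The letters TTGCATCA or their complement TGATGCAA, the composite site of ATF4 and C/EBP, were found in 4 of the 209 promoters (1.91%), of Slc1a4, Slc7a7 and Slc50a1. Of all 32851 promoters in the table, 0.895% hold them. The letters CACGTG, an E-box of MYC and TFEB type that reads the same on both strands, were found in 27 of the 209 promoters (12.9%), among them that of Slc31a2, and in 7.15% of all promoters. Capitals mark the match, and each run reads 5′ to 3′ on the strand of the gene.
Slc1a4, chr11:20332699-20332728, minus strand: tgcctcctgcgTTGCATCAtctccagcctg
Slc7a7, chr14:54417927-54417956, minus strand: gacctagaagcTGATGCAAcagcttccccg
Slc50a1, chr3:89270741-89270770, minus strand: agtggtctcgaTGATGCAAggggtgcgcag
Slc31a2, chr4:62286418-62286445, plus strand: cctcaccgggcCACGTGactcgcgtggc
The match begins 4 bases before the start in Slc1a4, 1 base before it in Slc7a7 and 189 bases before it in Slc50a1. In Slc31a2 it begins at the start or within the 50 bases after it. Each start is 1 that RefSeq lists and need not be the end of the gene in GENCODE. That of Slc31a2 lies inside the gene span that GENCODE gives. Other letters searched on both strands were GAAANNGAA (interferon response element core, 6.22% of the 209 and 8.56% of all promoters), TTCNNNGAA (STAT site, 5.74% and 8.3%), TGCGCNC (metal response element core, 22% and 15.4%) and TGANTCA (AP-1 type site, 5.26% and 7.81%). These shares were not tested. A match is a description of letters and not a site in use.

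Most solute carrier genes differed little between R848 and control. Differences are given as R848 minus control in log2(FPKM + 1), which understates the change of genes at low levels. Of the 195 genes, 88.7% lay within 0.5 of no difference and 4 differed by at least 1, beside 86.6% and 3.8% of all 12612 genes tested. The median difference was -0.08, the same as over all genes tested. It was 0.00 in mouse 4050 and -0.17 in mouse 4182, beside 0.00 and -0.16 over all genes. Under quantile normalization and under scaling by the median log ratio the median of the solute carriers was -0.03 and -0.01.

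By limma on all 12612 genes, at a Benjamini-Hochberg adjusted p under 0.05, 1 solute carrier gene (Slc39a4) rose with R848 and 0 fell, beside 1.47% and 0.381% of all genes. At an unadjusted p under 0.05, limma placed 7 higher (3.59%) and 13 lower (6.67%), beside 5.2% and 6.33% of all genes. Blocking on the mouse gave 3 genes above control and 3 below it (Slc39a4, Slc15a3 and Slc31a2 against Slc14a1, Slc7a3 and Slc7a5), beside 3.4% and 1.9% of all genes. The share of solute carriers called with the block was thus 1.54% in each direction. For genes below control this was near the share of all genes, and neither gap was tested. Both R848 samples lay above both controls in 28 genes and below both in 57, beside 13.5% and 28.8% of all genes, and as shares of the 195 these are 14.4% and 29.2%. In 121 genes (62.1%) the mice shared the direction, 44 higher and 77 lower, beside 60.9% of all genes. Across the 195 genes the differences of the 2 mice correlated at 0.49 (0.56 over all genes), a description over genes that share 4 libraries.

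**Figure D1:**
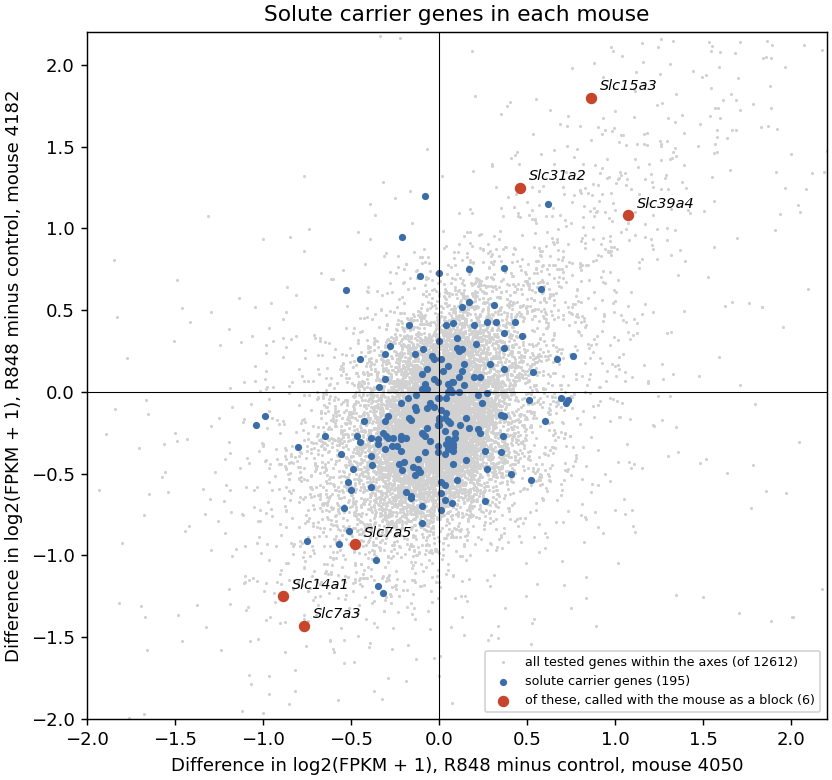
Difference in log2(FPKM + 1) between R848 and control in mouse 4050 (x axis) and in mouse 4182 (y axis), 1 point a gene, with the 195 solute carrier genes in blue or red over the tested genes in grey, those beyond the axes not drawn. The blue cloud lies within the grey one around 0, and the 6 genes called with the mouse as a block (red) lie away from 0 in both mice.

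Slc39a4, which encodes the zinc importer ZIP4 (GRCm38 chromosome 15, 76612383 to 76617384), rose with R848. Its level was 6.53 and 7.06 FPKM in the controls of mice 4050 and 4182, and 14.8 and 16.1 FPKM with R848. The groups did not overlap, and the difference was nearly the same in both mice, 1.07 and 1.08. The mean went from 6.80 ± 0.371 to 15.4 ± 0.907 FPKM (SD, n = 2 each), or 1.07 ± 0.18 (SE) on the log2 scale, with limma adjusted p = 0.0347, and 0.00647 with the mouse as a block. The call ended under both rescalings without the block (limma adjusted p = 0.0739 after quantile normalization and 0.0647 after median scaling), and held with the block and median scaling together (0.00828). It also ended when any 1 of the 4 samples was left out (limma adjusted p from 0.0661 to 0.259), with differences from 1.02 to 1.13.

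Slc15a3, the endolysosomal peptide and histidine carrier PHT2 (chromosome 19, 10839727 to 10859362), had the highest difference of all 195 genes. It was at 12.1 and 7.48 FPKM in the controls and at 22.8 and 28.5 FPKM with R848 (mice 4050 and 4182). Both R848 samples were above both controls, and the difference was larger in mouse 4182 (1.80) than in mouse 4050 (0.86). The log2 difference was 1.33 (SE 0.25), with limma adjusted p = 0.0514, just past the threshold, and 0.00347 with the block. Without the block limma adjusted p was 0.147 after quantile normalization and 0.12 after median scaling. With the block and median scaling it was 0.0231. When 1 sample was left out, the difference ran from 1.02 to 1.64. Tmem132a overlaps the gene on the other strand, and whether strand was used in counting was not given in the sources used here.

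Slc31a2, the copper carrier CTR2 (chromosome 4, 62262562 to 62298411), was at 31.9 and 19.9 FPKM in the controls and at 44.1 and 48.7 FPKM with R848. All R848 values were above the controls, by 0.46 in mouse 4050 and 1.25 in mouse 4182. The difference of 0.85 did not pass without the block (limma adjusted p = 0.177) and passed with it (0.0252), and with median scaling added it no longer did (0.0754). The difference was 0.53 without the control of mouse 4182 and 1.18 without that of mouse 4050. Without the block limma adjusted p was 0.256 after quantile normalization and 0.226 after median scaling. Its relative Slc31a1, the main copper importer CTR1, was at 15.4 and 20.8 FPKM in control and at 26.2 and 20.0 FPKM with R848, so that its groups overlapped.

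Slc14a1, a urea carrier of red cells and kidney, fell with the mouse as a block. It was at 2.55 and 4.23 FPKM in the controls and at 0.910 and 1.20 FPKM with R848. The groups did not overlap at this low level. The difference was -1.07 (limma adjusted p = 0.137, and 0.0258 with the block). Without the block limma adjusted p was 0.227 after quantile normalization and 0.253 after median scaling. With the block and median scaling it was 0.0501. When 1 sample was left out, the difference ran from -1.35 to -0.79. Of 7 erythroid marker genes measured, only Hbb-b1 had a mean of at least 1 FPKM, and their summed level was 6.17 and 8.23 FPKM in control and 4.39 and 4.68 FPKM with R848. Their part in the fall of Slc14a1 was not tested.

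Slc7a3, a cationic amino acid carrier for arginine and lysine (chromosome X, 101079210 to 101086020), also fell with the block. It was at 3.38 and 7.72 FPKM in the controls, which lay far apart, and at 1.56 and 2.24 FPKM with R848. The difference was -1.10 (limma adjusted p = 0.241, 0.023 with the block, and 0.0429 with the block and median scaling). The difference was -0.61 without the control of mouse 4182 and -1.60 without that of mouse 4050. Without the block limma adjusted p was 0.363 after quantile normalization and 0.383 after median scaling.

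Slc7a5, the light chain LAT1 that imports large neutral amino acids such as leucine (chromosome 8, 121881150 to 121907694), was the most abundant gene among the 6. It was at 61.2 and 53.2 FPKM in the controls and at 43.4 and 27.5 FPKM with R848. Both R848 samples were below both controls, with differences of -0.48 in mouse 4050 and -0.93 in mouse 4182. The difference of -0.70 passed with the block only (limma adjusted p = 0.271 without and 0.0314 with it), and with median scaling added it did not (0.071). It was -0.38 without the R848 sample of mouse 4182 and -1.03 without that of mouse 4050.

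In these bulk samples more or fewer cells of a type and more or less RNA per cell cannot be told apart. Markers of several cell types moved with R848 as well. Of 6 B cell markers 5 were tested and 3 rose by limma, and the summed level went from 14.7 and 16.3 to 41.7 and 43.3 FPKM. Of 7 plasma cell markers 6 were in the table and 4 rose, with sums of 21 and 20 against 737 and 626 FPKM. Of 6 T cell markers 4 were tested and 2 rose, with sums from 3.24 to 4.68 in control and 8.74 to 12.1 FPKM with R848. Of 6 macrophage markers, 1 rose and 1 fell by limma: Emr1 went from 52.6 and 61.5 to 156 and 154 FPKM and Mrc1 from 67.7 and 33.3 to 8.50 and 3.11 FPKM. With the block Csf1r (68.3 and 52.5 against 111 and 82.5 FPKM, limma adjusted p = 0.0215) and Cd14 (46.1 and 23.3 against 76.5 and 48.1 FPKM, 0.007) were higher too. Cd68 was lower in both mice (64.3 and 68.7 against 45.6 and 59.3 FPKM) and did not pass. Mertk went in opposite directions in the mice (4.78 and 2.84 against 3.89 and 4.51 FPKM). The macrophage sum went from 304 and 242 to 401 and 352 FPKM. Neutrophil markers (7), mast cell and basophil markers (7), myeloid progenitor markers (6) and 2 tested NK cell markers had 0 called by limma, and with the block Fcer1a was higher and Cd34 lower. The myeloid progenitor list, which holds Mpo and Elane, summed to 6440 to 7700 FPKM in every sample, so that the myeloid genes that fit the labelled leukaemia were expressed in both groups. Within that list 3 genes were higher and 2 lower in both mice. Mpo was at 1480 and 1530 against 1280 and 1050 FPKM. Prtn3 was at 1810 and 1790 against 2320 and 2370 FPKM, and Ctsg at 1920 and 2270 against 2500 and 3170 FPKM. Mpo, Prtn3 and Ctsg did not pass in either fit. The part of any of these markers in the 6 results above was not tested.

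**Figure D2:**
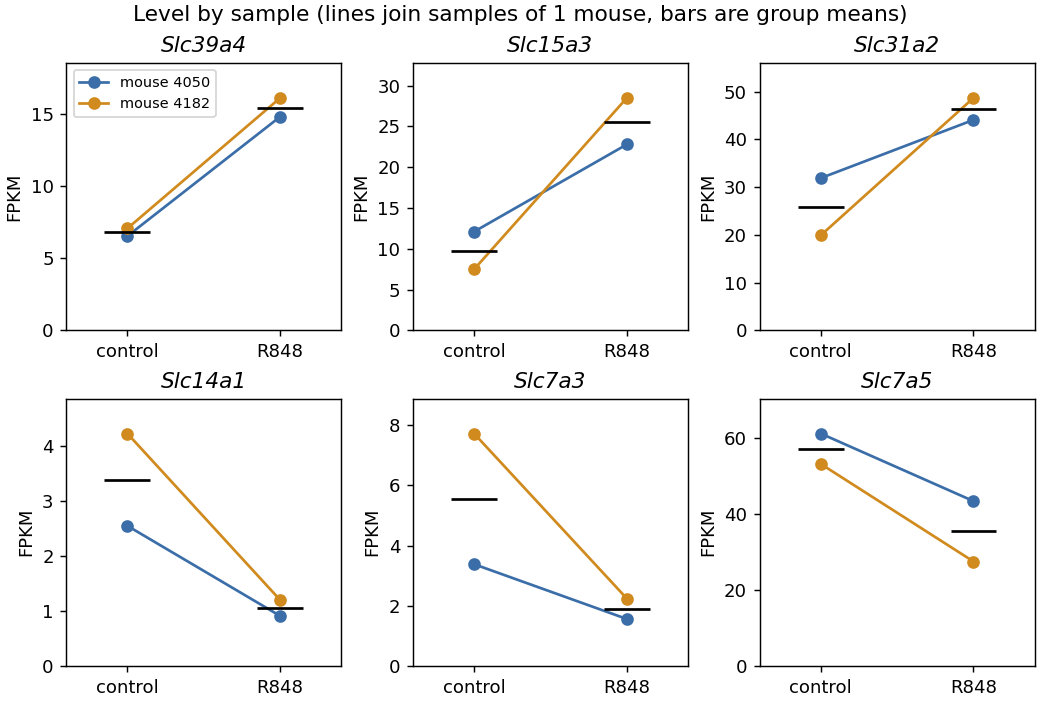
Level in FPKM (y axis, from 0) in control and R848 samples of the 6 genes called with the mouse as a block, with lines joining the samples of 1 mouse and black bars for the group means (n = 2). In each panel the 2 groups do not overlap, with Slc39a4 at 6.53 and 7.06 against 14.8 and 16.1 FPKM.

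Grouped by family number into 9 substrate classes, the classes differed little in their medians. The medians ran from -0.26 (organic ion and vesicular carriers, 12 genes) to -0.02 (mitochondrial carriers, 38 genes). After median scaling they ran from -0.19 to 0.06 for the same classes, and the mitochondrial median turned above 0 under both rescalings (0.02 after quantile normalization). The 6 genes called with the block belong to 3 classes, amino acid and peptide (3 genes), transition metal (2) and organic ion (1). The last is the urea carrier Slc14a1, which the grouping by hand placed in that class. Of the amino acid and peptide class 3.12% were called higher and 6.25% lower with the block. It was 8.33% and 0% in the transition metal class, and 0% and 8.33% in the organic ion class. Over all genes it was 3.4% and 1.9%, and these gaps were not tested.

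**Figure D3:**
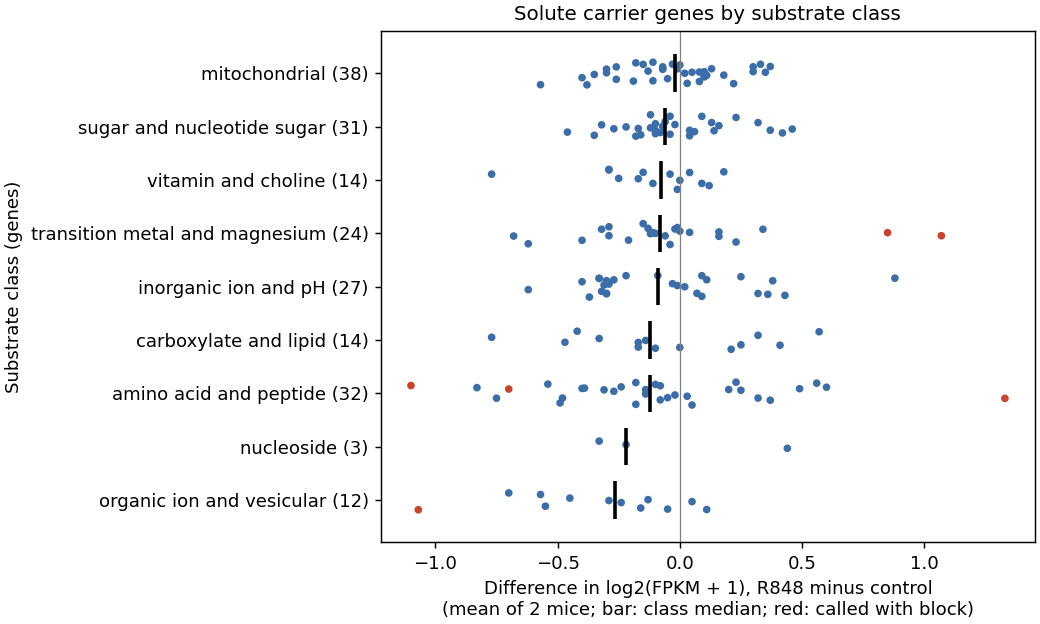
Difference in log2(FPKM + 1), R848 minus control and mean of 2 mice (x axis), for the 195 genes in 9 substrate classes (y axis, with the number of genes), 1 point a gene, black bar for the class median and red for the 6 genes called with the mouse as a block. Class medians lie between -0.26 and -0.02, and the spread is widest among amino acid and peptide carriers, from -1.10 to 1.33.

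The amino acid and peptide families (32 genes, Slc7a6os among them) had a median of -0.12, with 0 called by limma. Before adjustment, limma gave 2 genes above control (6.25%) and 6 below it (18.8%) at p under 0.05, beside 5.2% and 6.33% of all genes. With the block 1 rose (3.12%) and 2 fell (6.25%), beside 3.4% and 1.9% of all genes, and neither gap was tested. The heavy chain Slc3a2 was at 107 and 122 FPKM in control and at 99.0 and 75.0 FPKM with R848. Both R848 samples were lower, as for its partner Slc7a5, but the difference of -0.40 did not pass (limma adjusted p = 0.485, 0.271 with the block). Another partner, Slc7a7, a light chain that exchanges cationic for neutral amino acids, went the other way, from 3.40 and 3.35 to 5.57 and 5.71 FPKM. Its difference of 0.60 did not pass (limma adjusted p = 0.278, 0.199 with the block). Of the 9 Slc7 symbols it was the only one above 0 in the mean of the mice, where 62.8% of all genes were below 0. Slc7a6os, which is no carrier, joined Slc7a7 under both rescalings. Slc7a1, the widely expressed cationic carrier, was at 15.1 and 10.1 against 11.3 and 7.51 FPKM, with overlapping groups.

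Slc1a4, the alanine and serine carrier ASCT1, was at 3.61 and 4.14 FPKM in control and at 2.11 and 1.70 FPKM with R848. Slc6a9, the glycine carrier GlyT1, was at 6.27 and 4.98 against 3.31 and 2.18 FPKM. In both the groups did not overlap, and the differences of -0.75 and -0.83 did not pass with limma (adjusted p = 0.221 and 0.215, and 0.122 and 0.0643 with the block). Slc1a5, the glutamine carrier ASCT2, stayed close to its control in each mouse, at 92.0 and 68.1 against 95.0 and 70.5 FPKM. Slc1a3, a glutamate carrier, was low, at 0.791 and 0.999 against 2.03 and 1.33 FPKM. The differences of the 3 genes with letters of the ATF4 site near their start, shown above, were -0.75 for Slc1a4, 0.60 for Slc7a7 and -0.12 for Slc50a1, and none passed.

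The 6 Slc38 carriers take up glutamine and other neutral amino acids with sodium or act in lysosomes, and none passed. Their mean differences were below 0, as were those of 62.8% of all genes, and Slc38a1 (-0.05) turned above 0 under both rescalings (0.02 and 0.03). The family median was 0.01 in mouse 4050 and -0.35 in mouse 4182, and 2 of the 6 were lower in both mice. Slc38a10 was at 34.6 and 33.4 FPKM in control and at 23.8 and 22.5 FPKM with R848. That is a difference of -0.54 with little spread within the groups (limma adjusted p = 0.224, 0.111 with the block). Slc38a6 was the third most abundant solute carrier here, at 158 and 144 against 163 and 115 FPKM. Slc38a2, which cells raise when short of amino acids, was at 54.1 and 55.2 against 54.4 and 37.4 FPKM, so that it was low in the R848 sample of mouse 4182 alone. Slc38a9, a lysosomal arginine sensor upstream of mTORC1, was at 2.91 and 3.63 against 2.98 and 2.56 FPKM.

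Slc43a2, a carrier for leucine and similar amino acids, was at 25.3 and 25.9 FPKM in control and at 19.1 and 16.9 FPKM with R848 (difference -0.49, limma adjusted p = 0.304). Its relative Slc43a3 was at 62.0 and 49.4 against 67.8 and 59.6 FPKM. Slc15a4, the relative of Slc15a3 that is tied to TLR7, was at 22.9 and 27.8 FPKM in control and at 23.4 and 17.3 FPKM with R848. The groups of Slc15a4 overlapped and its difference was 0.03 in mouse 4050 and -0.66 in mouse 4182, whereas Slc15a3 was higher in both mice. Slc6a12, a betaine and GABA carrier, went in opposite directions in the mice, from 3.38 to 3.15 FPKM in mouse 4050 and from 1.35 to 4.39 FPKM in mouse 4182.

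**Figure D4:**
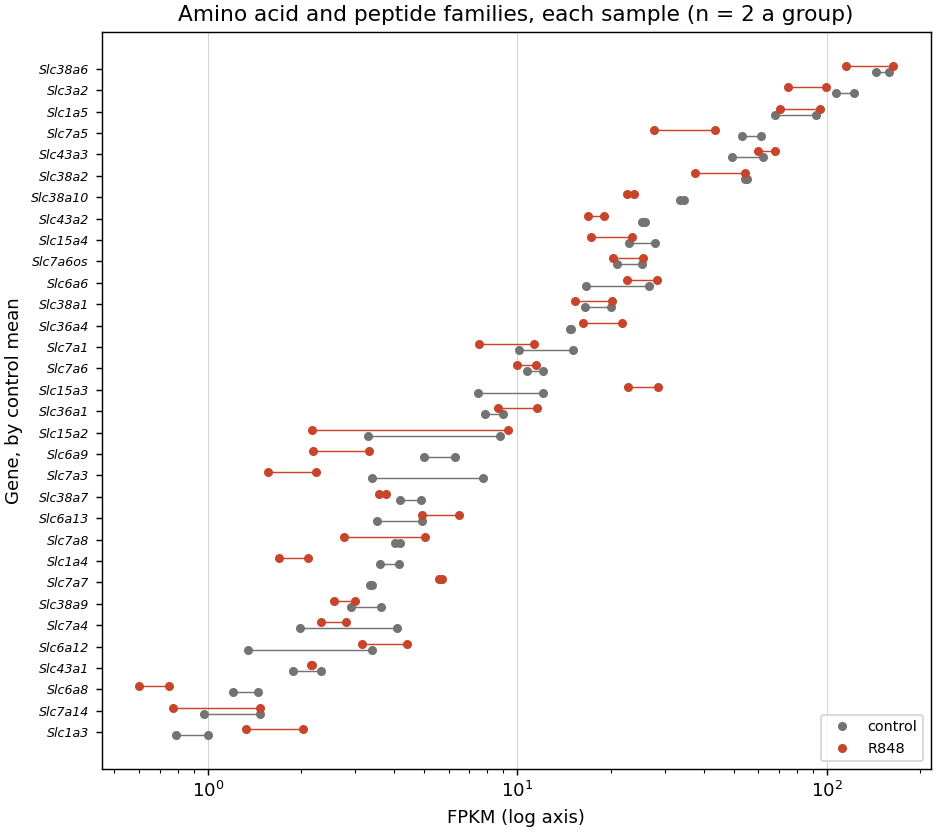
Level in FPKM (x axis, log scale) of the 32 genes of the amino acid and peptide families (y axis, ordered by control mean), with a point for each control sample (grey) and each R848 sample (red), 2 a group, joined by a line. Red points lie to the right of grey for Slc15a3 (22.8 and 28.5 against 12.1 and 7.48) and Slc7a7, and to the left for Slc7a5, Slc7a3, Slc6a9, Slc1a4 and Slc38a10.

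Among carriers of transition metals and magnesium (24 genes, median -0.08), Slc39a4 was the gene called by limma, and Slc31a2 joined it with the block. With the block this made 2 higher (8.33%) and 0 lower, beside 3.4% and 1.9% of all genes. At an unadjusted p under 0.05 limma placed 2 above control (8.33%) and 1 below it (4.17%), beside 5.2% and 6.33% of all genes. These gaps were not tested. The other zinc carriers stayed near their controls or did not pass. The 12 Slc39 genes had a median of -0.07, and of these Slc39a10, a plasma membrane zinc importer, was lowest with 4.79 and 5.46 against 4.20 and 3.15 FPKM (difference -0.40, limma adjusted p = 0.576). Slc39a14, an importer of zinc and iron, was at 6.56 and 7.22 against 6.97 and 5.59 FPKM. The zinc exporter Slc30a1 was at 5.18 and 5.25 against 5.43 and 4.03 FPKM. Slc30a4, which loads vesicles with zinc, was at 9.84 and 5.48 in control and at 4.27 and 4.64 FPKM with R848, with 1 control standing above the rest (difference -0.62, limma adjusted p = 0.464). Slc30a6 was at 9.75 and 8.13 against 10.9 and 9.29 FPKM. Slc41a2, a magnesium carrier, was at 4.22 and 3.92 against 2.66 and 1.73 FPKM. Its groups did not overlap and its difference of -0.68 did not pass (limma adjusted p = 0.309), while Slc41a1 was at 4.08 and 4.33 against 3.97 and 4.01 FPKM.

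The inorganic ion and pH families (27 genes, median -0.09) had 0 called by limma without or with the block, and at an unadjusted p under 0.05 there were 2 above (7.41%) and 1 below control (3.7%), beside 5.2% and 6.33% of all genes. Slc4a8, a sodium-driven bicarbonate exchanger, had the highest difference, 0.88, at a low level of 1.34 and 0.874 against 2.60 and 3.16 FPKM (limma adjusted p = 0.182, 0.0804 with the block). Slc8a1, the sodium-calcium exchanger NCX1, was at 9.36 and 9.49 FPKM in control and at 12.9 and 13.2 FPKM with R848. Its difference was 0.43 in each mouse and did not pass (limma adjusted p = 0.411). Slc26a6, an anion exchanger, was at 5.29 and 5.09 against 3.34 and 2.71 FPKM (difference -0.62, limma adjusted p = 0.287). Slc20a1, a phosphate importer and retrovirus receptor, was at 42.1 and 25.8 against 47.3 and 38.3 FPKM. In the sodium-proton exchanger family 6 of 7 Slc9 symbols were below 0 in the mean (5 under both rescalings, where Slc9a9 turned), beside 62.8% of all genes. Slc9a7 was lowest at -0.40. The scaffold Slc9a3r1, which is no carrier, was at 63.5 and 49.9 against 62.9 and 51.9 FPKM. Slc12a9 and the chloride importer Slc12a2 had the lowest and highest differences of the 6 Slc12 genes, -0.33 and 0.38. Slc4a2, an anion exchanger, was at 22.9 and 17.1 against 18.8 and 13.4 FPKM.

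Mitochondrial carriers had the highest summed level of the 9 classes. All 38 belong to Slc25 and were placed here by family number alone. Their summed level was 1741 and 1566 FPKM in control and 1818 and 1764 FPKM with R848, out of 4067 to 4514 FPKM for all solute carrier genes. By limma 0 were called, without or with the block, and 0 had an unadjusted p under 0.05 in either fit. Slc25a5, an ADP/ATP carrier, had the highest level of all 195 genes, at 567 and 431 FPKM in control and 620 FPKM in both R848 samples (difference 0.33, limma adjusted p = 0.567). Slc25a4, its relative, was at 78.7 and 58.5 against 72.8 and 96.6 FPKM, lower in mouse 4050 and higher in mouse 4182. Slc25a3, the phosphate carrier, was second in level with 235 and 215 against 255 and 228 FPKM, and Slc25a11, the oxoglutarate carrier, was at 102 and 95.6 against 101 and 93.1 FPKM. The extremes of the family were Slc25a33, a pyrimidine nucleotide carrier (0.37, from 5.57 and 4.64 to 7.51 and 6.25 FPKM), and Slc25a18, a glutamate carrier near the threshold of level (-0.57, from 2.12 and 1.14 to 0.571 and 0.928 FPKM).

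**Figure D5:**
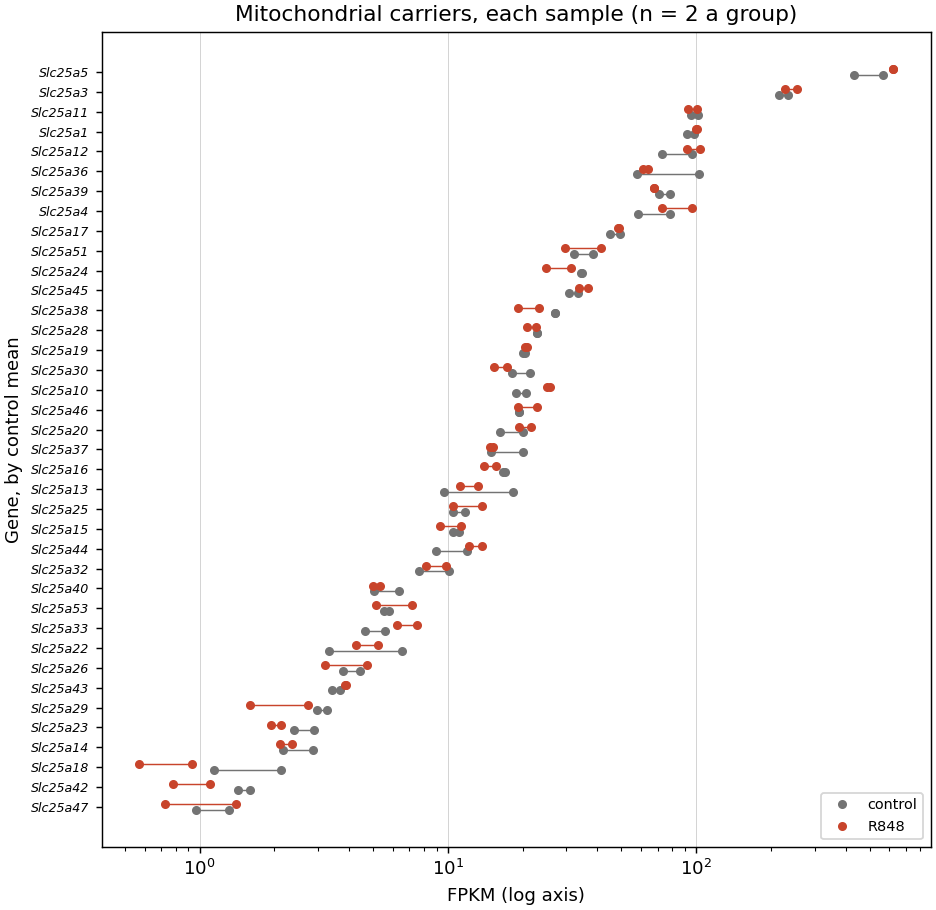
Level in FPKM (x axis, log scale) of the 38 mitochondrial carrier genes (y axis, ordered by control mean), with a point for each control sample (grey) and each R848 sample (red), 2 a group, joined by a line. Samples span from 0.571 FPKM in Slc25a18 to 620 FPKM in Slc25a5, and red and grey points lie close together for most genes.

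Sugar and nucleotide sugar families (31 genes, median -0.06, and 0.00 and 0.01 after the rescalings) all lay within 0.5 of no difference. Limma called 0 without or with the block, with 0 at an unadjusted p under 0.05 without it and 1 higher with it. Slc35b1, a carrier of the endoplasmic reticulum, was at 64.8 and 43.7 against 73.2 and 74.2 FPKM (0.46), and Slc35c2, linked to fucosylation, was lowest of the 20 Slc35 genes with 65.9 and 55.8 against 54.9 and 45.6 FPKM (-0.27). Slc2a6, a lysosomal hexose carrier of macrophages, was at 23.9 and 10.6 against 20.5 and 21.4 FPKM, lower in mouse 4050 and higher in mouse 4182. Slc2a8, an intracellular hexose carrier, was at 7.66 and 6.77 against 4.50 and 5.47 FPKM (-0.46, limma adjusted p = 0.468). In the sugar phosphate family Slc37, Slc37a1 was at 0.16 and Slc37a3 at -0.35 on the log2 scale.

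The nucleoside families held 3 genes. Slc28a2, which concentrates purine nucleosides, was at 41.3 and 41.6 FPKM in control and at 66.2 and 48 FPKM with R848, above the controls in both mice. Slc29a1, the equilibrative carrier ENT1, was at 51.3 and 48.1 against 41.7 and 43.4 FPKM. Slc29a3, the lysosomal carrier ENT3 whose loss in mice is known to raise TLR7 signalling, was at 3.19 and 2.96 against 2.37 and 2.11 FPKM. The 3 differences of 0.44, -0.22 and -0.33 did not pass (limma adjusted p = 0.463, 0.673 and 0.640).

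Carboxylate and lipid families (14 genes, median -0.12) had 0 called by limma without or with the block, and at an unadjusted p under 0.05 there was 1 gene each way (7.14%, beside 5.2% and 6.33% of all genes). Slc10a3 was highest, from 10.5 and 7.81 to 13.9 FPKM in both R848 samples (0.57, limma adjusted p = 0.325), and Slc10a7 lowest in its family at -0.17. The monocarboxylate carrier Slc16a6 was at 41.8 and 37.0 against 58.1 and 47.3 FPKM (0.41, limma adjusted p = 0.447), and Slc16a4 was at 3.39 and 3.56 against 2.37 and 2.33 FPKM (-0.42). The 3 Slc27 genes, which activate and take up fatty acids, were below 0 in the mean, as were 62.8% of all genes. They ran from -0.77 in Slc27a3 to -0.17 in Slc27a4. In Slc27a3 the control of mouse 4182 (5.20 FPKM) stood above the other 3 samples (1.65 to 2.33 FPKM).

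Vitamin and choline families (14 genes, median -0.08) had 0 called by limma without or with the block, and at an unadjusted p under 0.05 there was 1, below control (7.14%, beside 6.33% of all genes). That gene, the riboflavin carrier Slc52a3, was at 3.05 and 2.94 against 2.19 and 0.733 FPKM (-0.77, limma adjusted p = 0.421), so that the R848 sample of mouse 4182 was the low one. Slc19a1, the reduced folate carrier that also imports cyclic dinucleotides, was at 19.2 and 14.3 against 18.8 and 16.6 FPKM. The vitamin carrier Slc5a6 and the inositol carrier Slc5a3 were at 0.12 and -0.15, and the choline-like carriers Slc44a1 and Slc44a2 at -0.17 and -0.29 on the log2 scale.

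Organic ion and vesicular families (12 genes) had the lowest median, -0.26, and it was -0.19 under both rescalings. After quantile normalization the median of the nucleoside families was lower, at -0.21. Limma called 0 of the 12 organic ion and vesicular genes without the block. With the block 0 rose and 1 fell (8.33%), beside 3.4% and 1.9% of all genes. At an unadjusted p under 0.05 limma placed 0 above control and 3 below it (25%), beside 5.2% and 6.33% of all genes. These gaps were not tested. In the organic ion and vesicular families 10 of the 12 were below 0 in the mean (9 under both rescalings, where Slc22a3 turned), beside 62.8% of all genes. Both R848 samples lay below both controls in 6 of the 12, beside 28.8% of all genes. These were Slc14a1, 3 Slc17 genes, Slc22a4 (16.3 and 18.1 against 14.2 and 14.7 FPKM) and Slc22a21 (2.37 and 1.33 against 0.930 and 0.834 FPKM). Slc17a5, the lysosomal sialic acid exporter sialin, was at 14.9 and 16.7 against 10.2 and 10.6 FPKM (-0.55, limma adjusted p = 0.261, 0.161 with the block). Slc17a9, the vesicular ATP carrier, was at 18.6 and 19.4 against 17.3 and 10.7 FPKM (-0.45), and Slc17a8, a vesicular glutamate carrier, at 1.32 and 2.53 against 0.805 and 0.732 FPKM (-0.70). All 6 Slc22 genes were below 0 in the mean, beside 62.8% of all genes. They ran from -0.57 in Slc22a21 to -0.05 in Slc22a3, the last of which turned to 0.03 under each rescaling. The 3 Slc24 calcium exchangers ran from -0.29 in Slc24a5 to -0.03 in Slc24a3, which turned to 0.02 and 0.05 under the rescalings. They count among the inorganic ion families.

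Genes that work beside the solute carriers were read from 3 lists. Of 48 carriers with other symbols 37 were tested, and 0 were called by limma. With the block 2 were higher and 1 lower, beside 3.4% and 1.9% of all genes, and this was not tested further. These were Unc93b1, the chaperone that brings TLR7 to endosomes (106 and 90.9 against 155 and 190 FPKM, limma adjusted p = 0.0875, 0.0113 with the block), and the organic anion carriers Slco3a1 (6.17 and 4.52 against 11.2 and 11.7 FPKM, 0.0834 and 0.0197) and Slco4a1 (25.8 and 33.7 against 16.3 and 15.7 FPKM, 0.0961 and 0.0184). Of 9 tested subunits of the sodium pump and carrier partners 0 were called in either fit, with a median of -0.02. Of 25 genes of lysosomal nutrient sensing through mTORC1 0 were called in either fit, with a median of -0.11.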

How the data were processed

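RNA sequencing of 4 samples (control and R848 from each of 2 mice) was available as 1 table. The tool named in the submitters' processing notes is kallisto, and the build mm10. Its version and the annotation are not given in the sources used here. Values are log2, deposited by the authors under the name FPKM. The lowest is 0 and undoing log2(value + 1) gives sums of 950530 to 962001 per sample, near those of TPM. They hold no counts, so depth is unknown.

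Of 28192 rows, 27 named as dates and 91 repeats were dropped. The test took genes whose mean reached 1 FPKM, on log2(FPKM + 1), pseudocount 1, with limma 3.58.1 in R 4.3.3 (trended prior, two-sided, Benjamini-Hochberg adjustment over 12612 genes, threshold 0.05), without a block. Residual degrees of freedom were 2 (prior 5.27), or 1 with the block (prior 11.3). The fit without the block was tested on simulated data with independent samples. The fit with the block was not tested in this way. Samples of 1 number come from the same mouse per the labels, so the numbers pair them. Deviations from the group means correlated at 0.289 within a mouse.

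The genes and lists were chosen with earlier results of these data known. Named genes are those called in either fit, the 10 smallest p in each direction, the extremes of each family of at least 3 genes, the 5 highest levels and 18 chosen by role (72 in all). Slc7a1, Slc31a1, Slc50a1, Slc52a3, Slc22a4, Slc7a6os, Slc9a9, the genes at the level threshold and the genes named outside the Slc symbols were added after their values were seen. Family numbers were put into 9 substrate classes by hand. Coordinates are from GENCODE M21 (GRCm38). Plots were made in Python 3.11.15 (matplotlib 3.10.9).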

Additional observations from a re-analysis of the deposited data

How the results depend on the processing

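With the mouse as a replicate block, limma called 429 genes higher and 240 lower over all genes, and 3 and 3 among the solute carriers. Without a filter on level it called 0 and 0 over all genes and 0 solute carriers, and with a filter of 5 FPKM 2 solute carriers were higher. Quantile normalization gave 76 and 12 over all genes, median scaling 91 and 15, and a minimum 2-fold change 30 and 5, each with 0 solute carriers. The block with median scaling gave 404 and 145, with 2 solute carriers higher and 1 lower. Leaving out 1 sample gave 46 to 259 higher and 10 to 136 lower over all genes, and 0 to 2 solute carriers in each direction. The call of Slc39a4 was kept with a pseudocount of 0.1, the filter of 5 FPKM and a constant prior (limma adjusted p = 0.0316, 0.0258 and 0.0432), and lost without a filter (0.258) and with the 2-fold minimum (1). Without the control of mouse 4050 limma called Slc15a3, Slc31a2, Slc14a1 and Slc7a3 (adjusted p = 0.00854, 0.0292, 0.0366 and 0.0168), with that group's lone sample assumed to vary like the other group. The median of the solute carriers lay between -0.17 and 0.02 when 1 sample was left out.

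Under the 2 rescalings 25 of the 195 differences turned in direction under at least 1. None of the named genes that turned was called by limma in any of these fits. Under median scaling, with or without the block, Slc22a3 was at 0.03, Slc24a3 at 0.05, Slc25a11 at 0.05, Slc38a1 at 0.03 and Slc41a1 at 0.01. Under quantile normalization Slc22a3 was at 0.03, Slc24a3 at 0.02, Slc38a1 at 0.02 and Slc41a1 at 0.02. When 1 sample was left out, the range crossed 0 for 16 named genes: Slc19a1 (-0.11 to 0.29), Slc1a5 (-0.17 to 0.26), Slc22a3 (-0.53 to 0.43), Slc24a3 (-0.35 to 0.29), Slc25a11 (-0.08 to 0.03), Slc26a2 (-0.06 to 0.28), Slc27a4 (-0.48 to 0.14), Slc2a6 (-0.18 to 0.92), Slc30a1 (-0.30 to 0.05), Slc37a1 (-0.03 to 0.35), Slc38a1 (-0.24 to 0.14), Slc38a6 (-0.38 to 0.11), Slc39a14 (-0.26 to 0.02), Slc44a1 (-0.62 to 0.29), Slc5a6 (-0.25 to 0.49) and Slc9a3r1 (-0.15 to 0.19). Causes were not tested. The depth is unknown, so no counting error could be given.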
